A study of Mus musculus with 2 samples.

Results

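The 10 genes described here encode 6 matrix metalloproteinases (MMPs) and all 4 tissue inhibitors of metalloproteinases (TIMPs). They were chosen by gene symbol, matched to the mouse Ensembl identifiers of the deposited files, and make up 10 of 55573 listed genes. The study asked which genes membrane depolarization induces in arteries. RNA was sequenced from mesenteric arteries, the resistance arteries that supply the intestine, of wild type C57BL/6 mice aged 10 weeks. The control library (5 mM K+) and the depolarized library (60 mM K+) were labelled as kept for 60 min in their solution, and each pooled tissue from 2 mice. According to the methods of the study, all solutions held tetrodotoxin against nerve activation, and control tissue was the distal side of ligated arteries, harvested before the rest was perfused with 60 mM K+. Artery segment, time in solution and K+ therefore cannot be told apart if the sequenced arteries were prepared in that way. With 1 library per condition, replicate spread is unknown for every difference below, and the conditions were not tested against each other by a p-value.

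MMPs are zinc-dependent proteases that cut collagens, laminins, elastin and other proteins of the extracellular matrix. Most are secreted as inactive precursors and are switched on by other proteases, while a membrane-anchored group acts at the cell surface. TIMPs are small proteins that bind the catalytic site of MMPs and block it, so that the amounts of enzymes, activators and inhibitors together set how much matrix is degraded. In arteries this balance is known for its part in vessel remodeling, in which smooth muscle cells, fibroblasts and infiltrating leukocytes supply different members of the family.

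Timp1 was the gene of the family that changed most among those with more than 20 reads: it was 2.60-fold higher in 60 mM K+ (95% counting interval 2.15 to 3.17). Mmp9, the gelatinase known from leukocytes, was 4.97-fold lower (counting interval 1.42 to 26.6) on 16 reads and 3 reads. The other 8 genes differed by less than 1.5-fold with the TMM scaling described below. Among them were Mmp2, the enzyme gene with the most reads, and Timp2 and Timp3, the inhibitor genes with the most reads. Past a 2-fold difference, 1 of 10 genes was higher and 1 of 10 was lower. Of the 14829 genes that had 10 or more reads summed over the libraries, 5.54% (822) were higher and 5.86% (869) lower by that rule, so that the family's count lay near the background. Past 1.5-fold the family's counts were the same, and 11.9% of those genes were higher and 13.1% lower. With scaling by total counts, 601 genes were higher and 1285 lower past 2-fold.

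Fold changes were computed from read counts after TMM scaling (trimmed mean of M-values, in edgeR) and are given as log2FC, the binary logarithm of the 60 mM K+ value over the 5 mM K+ value. Counting intervals are 95% exact (Clopper-Pearson) intervals of the share of a gene's reads in the depolarized library, and they cover counting error only. The libraries held 10480918 reads (5 mM K+) and 11289598 reads (60 mM K+) on genes. FPKM, as deposited, denotes fragments per kilobase of gene, scaled to the depth of the library. FPKM is used to compare levels between genes. Its scaling by total reads sets every log2FC 0.21 lower than TMM does, and with TMM the median log2FC of the 14829 genes was -0.0047.

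Promoter sequences from RefSeq (GRCm38.p6) were at hand for 7 of the 10 genes, namely Mmp3, Mmp14, Mmp15 and the 4 TIMPs. They were searched from 250 bases before to 50 bases after the start of the gene for the AP-1 motif TGACTCA and for the full CRE, TGACGTCA, the binding motif of CREB, on both strands. Mmp3 was the only one of the 7 with an AP-1 motif, which 5.20% of all 32851 promoters in that table held. None of the 7 held a full CRE, which 1.79% of all promoters held. Mmp3 is shown for this AP-1 motif (in capitals, read as TGAGTCA on the gene's strand, 46 bases before the start). Timp1 is shown because its transcript differed most among the 7 genes. Below are the 250 bases before the start of Mmp3, at chr9:7445572-7445821, and of Timp1, at chrX:20869916-20870165, both on the plus strand.
Mmp3: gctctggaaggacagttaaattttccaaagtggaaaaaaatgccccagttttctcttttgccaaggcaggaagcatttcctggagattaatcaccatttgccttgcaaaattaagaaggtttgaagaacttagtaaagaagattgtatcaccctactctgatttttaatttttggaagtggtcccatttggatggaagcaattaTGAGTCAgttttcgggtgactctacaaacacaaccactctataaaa
Timp1: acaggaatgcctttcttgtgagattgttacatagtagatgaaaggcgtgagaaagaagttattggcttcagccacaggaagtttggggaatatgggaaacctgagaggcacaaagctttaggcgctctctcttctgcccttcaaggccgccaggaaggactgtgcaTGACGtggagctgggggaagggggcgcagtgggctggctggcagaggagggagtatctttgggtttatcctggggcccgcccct

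The capitals in Timp1 mark the short CRE motif TGACG, 84 bases before the start, which 20.8% of all promoters held on either strand and which no other promoter of the MMP and TIMP genes in the table held. A variant of the AP-1 motif, TGAGTAA, lies 26 bases after the start of Timp1 and was held by 2.68% of promoters, but by no other MMP or TIMP promoter in the table. It is shown here with 10 bases on each side (chrX:20870182-20870208).
Timp1 variant: ggtgggtggaTGAGTAAtgcgtccagg

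Both short motifs were searched after the values were seen. A match is a description of the sequence and shows no binding.

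TIMP1 is a secreted inhibitor of most MMPs, and its gene is known to respond to cytokines and growth factors. Timp1 (ENSMUSG00000001131; NCBIM37 chromosome X, 20447292 to 20451861) had 152 reads in the control and 369 reads in the depolarized library. Its log2FC was 1.38 (counting interval 1.10 to 1.66), and 3.05% of the 14829 genes had a higher value. It was also the 1 member past both cutoffs of the study (q under 0.005, absolute log2FC above 1) when q was recomputed here with the random-sampling test that DEGSeq offers. These q-values are not those of the study, whose own list of differentially expressed genes names neither Timp1 nor any other member. They take no account of any spread beyond random sampling of reads. By this recomputed rule 2.11% of 21374 genes with a read were up-regulated and 1.10% were down-regulated, and the test compares those libraries, not the conditions. Timp1 stayed higher under every scaling tried. With Ppia and Hprt as the reference, the genes that the study used for its qPCR, its log2FC was 0.89 and no longer past 2-fold; Ppia and Hprt themselves had log2FC of 0.51 and 0.47 with TMM.

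Timp1 lies on the opposite strand inside Syn1, a synapsin gene, and shares no exon bases with it. The library kit did not mark strand as far as the labels describe it. Syn1 had 11 and 5 reads, fewer in the library where Timp1 was higher, but the counting interval of its log2FC (-2.91 to 0.61) held 0. The nesting of TIMP genes in synapsin genes recurs in the family. Timp3 lies inside Syn3 and Timp4 inside Syn2, each on the opposite strand.

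**Figure D1:**
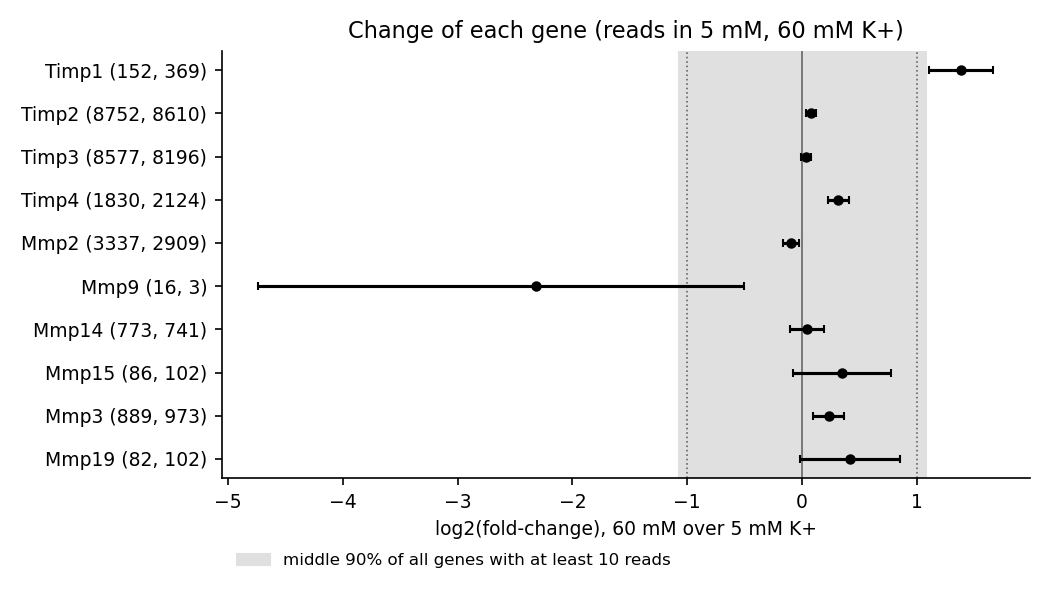
log2FC of the 10 genes (60 mM K+ over 5 mM K+, TMM scaling), with the reads in each library in brackets. Bars are 95% counting intervals, dotted lines mark 2-fold and the gray band holds the middle 90% of all genes with at least 10 reads. Timp1 (1.38) lies above the band with its whole interval, Mmp9 (-2.31) has a wide interval that reaches into it, and the other 8 lie inside it.

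Timp2 and Timp3 were the most abundant members by reads and by deposited FPKM. TIMP2 both inhibits MMPs and serves, with MMP14, in the activation of the MMP2 precursor, and TIMP3 is bound to the matrix and also blocks ADAM proteases. Timp2 (ENSMUSG00000017466; chromosome 11, 118162383 to 118217054) had 8752 and 8610 reads in 5 mM and 60 mM K+, a log2FC of 0.08 (counting interval 0.03 to 0.12). This value was -0.13 with total counts and -0.41 with Ppia and Hprt, so that its direction depends on the scaling. Timp3 (ENSMUSG00000020044; chromosome 10, 85763117 to 85812251) had 8577 and 8196 reads and a log2FC of 0.04 (counting interval -0.01 to 0.08). Its 8144 exon bases overlap those of Syn3 over 1733 bases, where reads cannot be assigned without strand. Syn3 had 39 and 15 reads, which cannot show whether Timp3 reads from the shared bases were counted.

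Timp4, an inhibitor gene of narrower tissue range, was intermediate. Timp4 (ENSMUSG00000030317; chromosome 6, 115195634 to 115201867) had 1830 reads in the control and 2124 reads in the depolarized library. Its log2FC of 0.32 (counting interval 0.23 to 0.41) was 0.11 with total counts and -0.17 with Ppia and Hprt. The difference between Timp1 and the other TIMPs does not depend on the scaling, because it is a ratio within each library. The log2FC of Timp1 was higher than that of Timp2 by 1.30 (exact 95% interval from the reads 1.02 to 1.59), than that of Timp3 by 1.35 (1.06 to 1.63) and than that of Timp4 by 1.06 (0.77 to 1.36).

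Per length, Timp1 was the least abundant TIMP in both libraries. It made up 2.09% of the summed FPKM of the 4 TIMPs in 5 mM K+ and 5.02% in 60 mM K+. As a share of TIMP reads these were 0.787% (exact 95% binomial interval 0.667 to 0.922) and 1.91% (1.72 to 2.12). Timp2 held 46.7% and 45.4% of the TIMP FPKM, and Timp3 held 44.5% and 41.9%. The bulk of inhibitor transcripts thus came from the same pair of genes in both libraries.

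**Figure D2:**
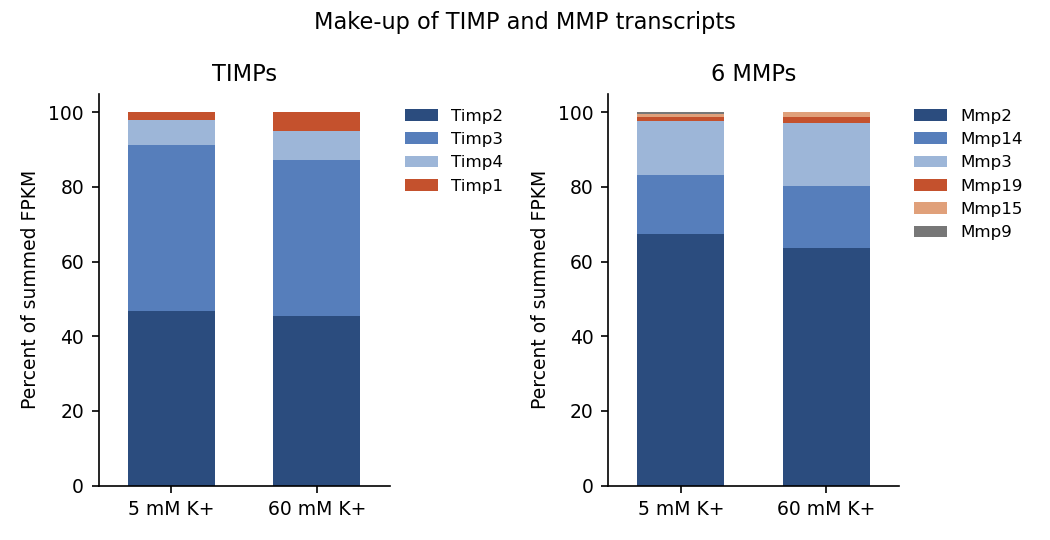
Share of each gene in the summed FPKM of the 4 TIMPs (left) and of the 6 MMPs (right), in percent, for the 5 mM K+ and the 60 mM K+ library. The Timp1 segment goes from 2.09% to 5.02%, while Timp2 and Timp3 among TIMPs, and Mmp2 among MMPs, hold the largest parts in both libraries.

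Among the enzymes, Mmp2 and Mmp14 belong together: MMP2 (gelatinase A) degrades denatured collagen and basement membrane, and MMP14 is the membrane-anchored protease that activates its precursor. Mmp2 (ENSMUSG00000031740; chromosome 8, 95351227 to 95377316) had 3337 reads in the control and 2909 reads in the depolarized library. Its log2FC was -0.10 (counting interval -0.17 to -0.02), and it was negative under every scaling tried, down to -0.59 with Ppia and Hprt. Mmp14 (ENSMUSG00000000957; chromosome 14, 55050441 to 55060095) had 773 and 741 reads, and its interval of -0.11 to 0.19 held 0. The FPKM of Timp2 was 1.71 times that of Mmp2 in 5 mM K+ and 1.93 times in 60 mM K+, and 7.26 and 7.45 times that of Mmp14. All 3 partners of this activation complex were detected in both libraries, and with TMM none differed past 1.5-fold.

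MMP9 (gelatinase B) shares substrates with MMP2 and is made in large amounts by neutrophils and macrophages. Mmp9 (ENSMUSG00000017737; chromosome 2, 164766280 to 164781350) was the lowest member, with 16 reads (exact Poisson interval 9.15 to 26.0) in 5 mM K+ and 3 reads (0.619 to 8.77) in 60 mM K+. Its log2FC of -2.31 had a counting interval of -4.73 to -0.51, so that these libraries differed by more than counting error but by an uncertain amount. Its recomputed q-value missed the cutoff (q = 0.0135 in the random-sampling test, Benjamini-Hochberg adjusted). Of 11 neutrophil markers, 7 were at 0 in both libraries, among them S100a9, Ly6g, Elane and Mpo, and the list summed to 8 and 20 reads. Ltf (lactoferrin), which epithelia also make, gave 5 and 19 of these reads, and the other 10 markers gave 3 reads and 1 read. Macrophage markers were present at low levels and summed to 632 and 563 reads; 10 of 10 had at least 10 reads, with a median log2FC of -0.06 (from -0.78 for Lyz2 to 0.93 for Fcer1g). Their part in the Mmp9 value was not tested, and in whole arteries fewer cells of a type and less RNA per cell cannot be told apart.

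Stromelysin 1 (MMP3), known from fibroblasts, degrades proteoglycans and laminin and activates other MMP precursors. Mmp3 (ENSMUSG00000043613; chromosome 9, 7445822 to 7455972) had 889 reads in the control and 973 reads in the depolarized library. The log2FC of 0.23 (counting interval 0.10 to 0.36) was 0.02 with total counts and -0.26 with Ppia and Hprt. Of 8 fibroblast markers, 6 had an interval below 0 and 1 above (20.3% and 25.0% over all genes), where abundant genes have narrow intervals. The median log2FC of the list was -0.22 (from -0.48 for Col14a1 to 0.21 for Pi16). Whether this moved with Mmp3 or Timp1 was not tested.

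Mmp15, a membrane-anchored relative of MMP14, and Mmp19, a secreted MMP of basement membrane substrates, were low. Mmp15 (ENSMUSG00000031790; chromosome 8, 97876168 to 97898193) had 86 and 102 reads, a log2FC of 0.35 (counting interval -0.08 to 0.78). Mmp19 (ENSMUSG00000025355; chromosome 10, 128228009 to 128237880) had 82 and 102 reads, a log2FC of 0.42 (counting interval -0.02 to 0.85). A difference in either gene was not detectable at this depth. Mmp19 shares 789 of its 3410 exon bases with 1110012D08Rik on the opposite strand, which had 110 and 64 reads, so that the value of Mmp19 is uncertain for that reason too.

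By their counting intervals, 4 of the 10 genes lay above 0 (Timp1, Timp2, Timp4 and Mmp3) and 2 lay below (Mmp2 and Mmp9), compared with 25.0% and 20.3% of all genes with at least 10 reads. With total counts the split was 2 above and 5 below. The interval of an abundant gene is narrow, and it takes no account of how mice or preparations differ. The median log2FC was 0.20 for the 4 TIMPs and 0.14 for the 6 MMPs.

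**Figure D3:**
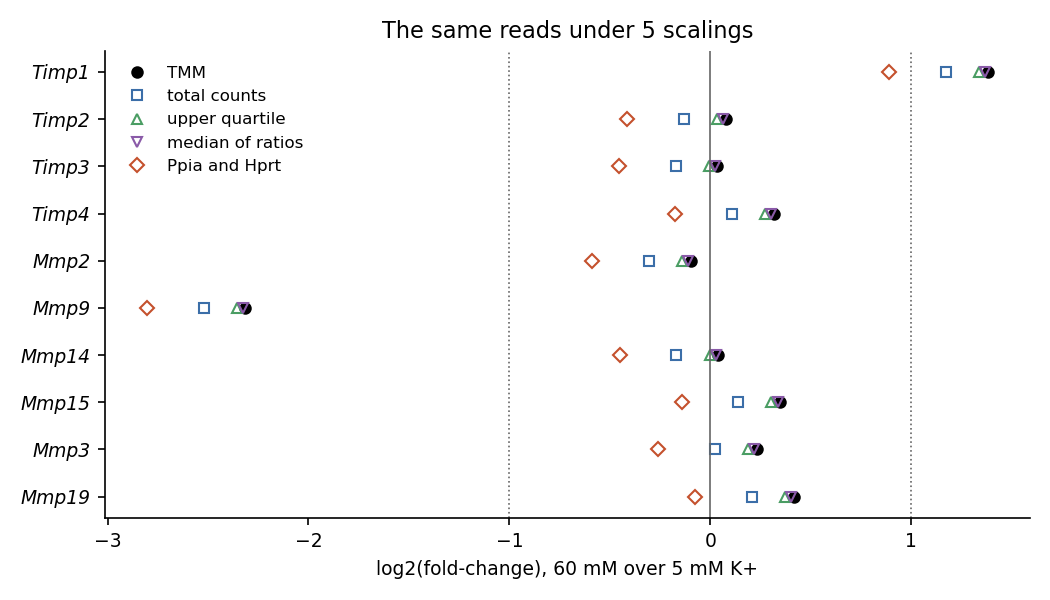
log2FC of the 10 genes (60 mM K+ over 5 mM K+) under 5 scalings of the same reads, from TMM (filled circles) to the mean of Ppia and Hprt (diamonds), with dotted lines at 2-fold. Timp1 is positive and Mmp2 and Mmp9 are negative under all 5, while the other 7 genes have values of both signs.

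The order of levels per length was nearly the same in both libraries. In 5 mM K+ it ran from Timp2 (377 FPKM) and Timp3 (359 FPKM) to Mmp2 (221 FPKM), Timp4 (54.2 FPKM), Mmp14 (51.9 FPKM), Mmp3 (47.1 FPKM), Timp1 (16.9 FPKM), Mmp19 (3.92 FPKM), Mmp15 (2.95 FPKM) and Mmp9 (1.18 FPKM). Neighbors whose counting intervals overlapped were Timp4 and Mmp14, Mmp14 and Mmp3, and Mmp19 and Mmp15. In 60 mM K+ the order differed in 1 place, where Mmp3 (47.9 FPKM) and Mmp14 (46.2 FPKM) changed places within overlapping intervals. Timp1, at 38.1 FPKM, kept its place below both. The gene lengths behind the deposited FPKM differ from the exon bases of the annotation used here for positions. For Timp3 they are 2279 and 8144 bases, and for Timp4 they are 3221 and 1416 bases. The order between genes therefore depends on the lengths used, which the counting intervals do not cover.

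**Figure D4:**
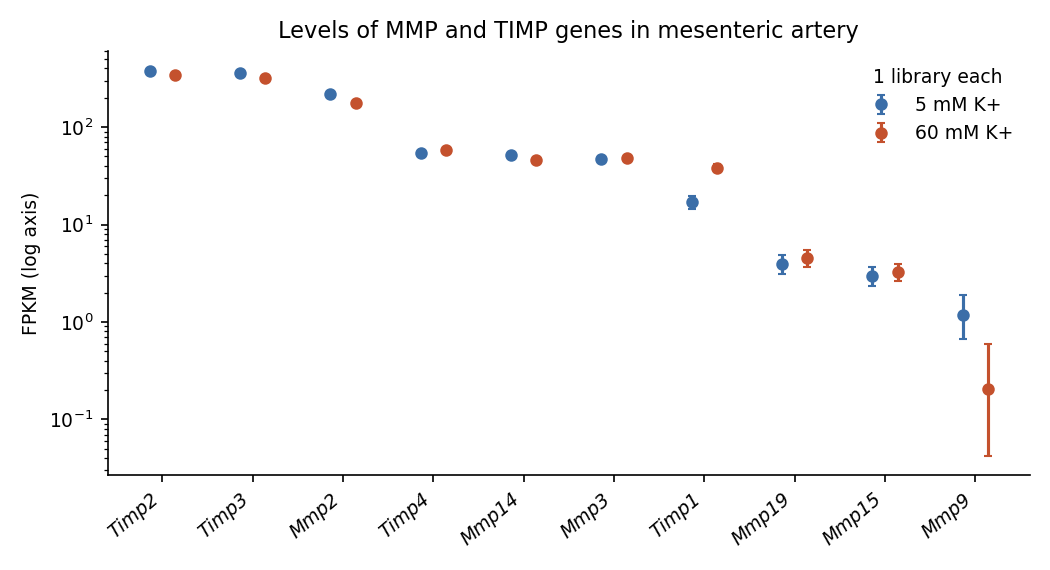
FPKM of each gene (log axis) in the 5 mM K+ library (blue) and the 60 mM K+ library (orange), ordered by the 5 mM K+ value. Bars are 95% Poisson counting intervals and are smaller than the points for abundant genes; levels run from 377 FPKM for Timp2 to 0.205 FPKM for Mmp9 in 60 mM K+, and the visible gap between libraries lies in Timp1 and Mmp9.

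The 4 TIMPs held 71.1% of the summed FPKM of the 10 genes in 5 mM K+ and 73.0% in 60 mM K+. These 10 genes leave out other expressed MMPs. Of the summed FPKM of the TIMPs and all MMP genes, the TIMPs held 62.9% and 64.0%. Within the 6 MMPs, Mmp2, Mmp14 and Mmp3 held 97.5% and 97.2%, and Mmp2 alone held 67.4% and 63.7%. Outside the 6, Mmp23 had 76.9 and 69.5 FPKM, above Mmp14 and Mmp3, and Mmp17 had 42.6 and 48.6 FPKM. The 6 MMPs held 68.8% and 65.7% of the summed FPKM of all MMP genes. These shares have no replicate error and depend on the gene lengths behind the FPKM. Counting error on the reads is below 1 percentage point for the TIMP share of the 10 genes. The read-based values of that share were 78.8% (exact 95% binomial interval 78.3 to 79.3) and 80.0% (79.5 to 80.5). Of the reads of the TIMPs and all MMP genes, the TIMPs held 70.5% (70.0 to 71.1) and 70.4% (69.8 to 70.9).

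Of the 17 other MMP genes, 10 had no read in either library: Mmp1a, Mmp1b, Mmp7, Mmp8, Mmp10, Mmp12, Mmp13, Mmp20, Mmp21 and Mmp25. A count of 0 allows up to 3 reads (a one-sided 95% bound), or 0.266 CPM (counts scaled to a common library total after TMM) in the control library and 0.286 CPM in the depolarized library. Mmp24 had 1 read in each library, and 6 genes had at least 10 reads in both together. The collagenases Mmp1a, Mmp8 and Mmp13 and the macrophage elastase Mmp12 were thus not detected at this depth.

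The detected relatives were mostly membrane-anchored or matrix-remodeling enzymes. Mmp17, a glycolipid-anchored MMP known from smooth muscle, had 1579 reads in the control and 1939 reads in the depolarized library, a log2FC of 0.40 (counting interval 0.30 to 0.49). Mmp28 had 426 and 522 reads, with log2FC of 0.39 (0.21 to 0.58). With Ppia and Hprt as the reference every value is lower by 0.49, which makes both negative. Mmp23 had 739 and 719 reads, and Mmp16 had 50 and 48 reads, with intervals that held 0. Mmp11, stromelysin 3, had 83 and 46 reads and a log2FC of -0.75 (counting interval -1.30 to -0.21). Mmp27, with 8 and 16 reads, was past 2-fold (log2FC 1.10), but its interval of -0.21 to 2.53 held 0.

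Mmp3 and Mmp27 are 2 of 10 MMP genes in a cluster on chromosome 9, and the other 8 genes of that cluster were among those with no read. In the promoter table, 7 of these 10 genes had an AP-1 motif (Mmp1a, Mmp1b, Mmp3, Mmp7, Mmp10, Mmp12 and Mmp13), compared with 0 of the 12 MMP and TIMP genes outside the cluster and 5.20% of all promoters. Among the 7 genes with the motif, only Mmp3 had reads. No MMP or TIMP promoter in the table, of 22 genes, held a full CRE.

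Genes that activate or restrain MMPs were taken from a list of 20, of which 16 had at least 10 reads. Past 2-fold, 4 of these 16 were higher in 60 mM K+ and 0 were lower (5.54% and 5.86% over all genes); with Ppia and Hprt as the reference only Plaur remained past 2-fold. By counting intervals 11 lay above 0 and 2 below (25.0% and 20.3% over all genes), which became 9 and 6 with Ppia and Hprt, and the median log2FC was 0.57, compared with -0.0047 over all genes. The median was 0.08 with Ppia and Hprt as the reference. The list was drawn up with earlier results of these data known, and the study's own list of up-regulated genes holds Plat, Plau and Plaur. The shares over all genes are therefore no independent comparison.

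The 4 genes past 2-fold include the plasminogen activator system, in which tissue-type (Plat) and urokinase-type (Plau) activators cleave plasminogen to plasmin, an activator of MMP precursors. Plat had 1667 reads in the control and 3905 reads in the depolarized library, a log2FC of 1.33 (counting interval 1.25 to 1.41). Plau had 833 and 1973 reads, a log2FC of 1.35 (1.23 to 1.46). Its receptor gene Plaur had 257 and 887 reads, the largest difference of the list at 1.89 (1.69 to 2.09). Plg, the gene of plasminogen itself, is made mainly in the liver and had no read in either library. Lcn2, whose protein binds MMP9, had 40 and 96 reads, a log2FC of 1.36 (0.82 to 1.93).

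Lrp1, a receptor that clears MMPs and their complexes, had 5779 and 4500 reads and a log2FC of -0.26 (-0.32 to -0.20). Furin, which cleaves the precursors of membrane-anchored MMPs, stood at 0.70 (0.57 to 0.83), and Reck, a membrane-anchored MMP inhibitor, at 0.13 (0.03 to 0.23). For Cd63, a tetraspanin that binds TIMP1, log2FC was 0.58 (0.52 to 0.64). With Ppia and Hprt as the reference, these values were -0.75 for Lrp1, 0.21 for Furin, -0.36 for Reck and 0.09 for Cd63. Reck was also negative with total counts (-0.08), so that its direction depends on the scaling.

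ADAM proteases shed proteins from the cell surface, and several are inhibited by TIMP3. Of 8 listed ADAM genes, 7 had at least 10 reads, with a median log2FC of -0.13. Past 2-fold, 0 were higher and 0 lower (5.54% and 5.86% over all genes). Adam15 had 3057 and 4452 reads, a log2FC of 0.64 (counting interval 0.58 to 0.71), and Adam33, known from smooth muscle and mesenchyme, had 1893 and 1413 reads, a log2FC of -0.32 (-0.42 to -0.22). The interval of Adam17, the sheddase of tumor necrosis factor, ran from -0.35 to 0.01 and that of Adam10 from -0.27 to 0.00.

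**Figure D5:**
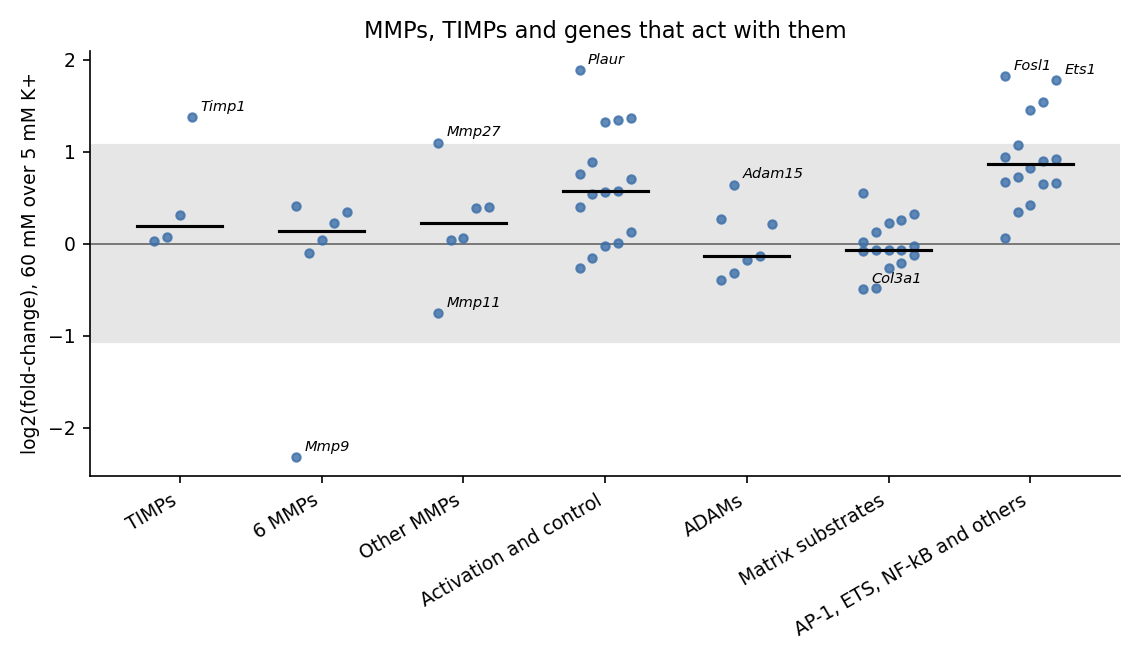
log2FC (60 mM K+ over 5 mM K+, TMM) of genes with at least 10 reads in 7 gene lists; each point is 1 gene, black bars are list medians and the gray band holds the middle 90% of all genes. Medians lie at 0.57 for activation and control genes and at 0.86 for AP-1, ETS, NF-kB and related factors, compared with 0.20 for TIMPs and 0.14 for the 6 MMPs.

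The labelled tissue was checked against cell type markers. Acta2 had the most reads of all genes in both libraries, and all 8 smooth muscle markers were detected, with Tagln low at 314 and 387 reads. Summed marker levels in 5 mM and 60 mM K+ were 36884 and 40487 CPM for smooth muscle, 3274 and 4477 CPM for endothelium, 3225 and 2876 CPM for fibroblasts, 176 and 133 CPM for adipocytes and 11.5 and 40.7 CPM for pancreas. They were 56.1 and 53.6 CPM for macrophages, 0.710 and 1.90 for neutrophils, 1.95 and 2.76 for mast cells, 0.355 and 0.571 for mesothelium and 0.710 and 0.762 for lymphocytes. Median log2FC was 0.12 for smooth muscle (from -0.53 for Myocd to 0.40 for Tagln), 0.38 for endothelium (from -1.10 for Kdr to 0.83 for Cdh5), -0.86 for adipocytes (from -2.39 for Plin1 to 3.27 for Lep on 1 and 9 reads) and 3.00 for pancreas (from 0.60 for Cpb1 to 5.03 for Pnlip), where Pnlip had 2 and 61 reads. The part of these differences in the Timp1 value was not tested.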

How the data were processed

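The libraries were of poly(A) RNA, and the methods name Novogene for the RNA-seq. Per the labels and methods, reads were aligned to mm9 with TopHat2. The submitters' processing notes also list TopHat2 2.0.12, HTSeq 0.6.1 and edgeR 3.0.8, and the builds mm8 and mm9. The gene annotation is not given in the sources used here, and of 55573 listed genes 32601 are in GENCODE vM1 (NCBIM37), from which positions and symbols were taken. The authors deposited raw read counts per gene and FPKM values made from the same reads. For 12906 genes with at least 10 reads in each library the ratio of counts to FPKM between libraries was 0.928, the ratio of total reads, so that FPKM was scaled by total counts.

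Scaling used R 4.3.3, with TMM from edgeR 4.0.16 and median-of-ratios size factors from DESeq2 1.42.0. Counting intervals and figures were made with Python 3.11.15, scipy 1.17.1 and matplotlib 3.10.9. A count of 0 entered folds as 0.5. The study used DEGSeq, and which of its tests is not given in the sources used here. A random-sampling test of that tool was computed here from its formula over genes with a read, with Benjamini-Hochberg adjustment, and its q-values are not those of the study. The edgeR quasi-likelihood test needs replicates and could not be run. The calculations were tested on data simulated with counting error only and scaled by total counts, without any spread between mice or preparations. The 10 genes and the gene lists were chosen with earlier results of these data known. Named are the 10 genes, other MMPs with at least 10 reads, list genes past 2-fold and the 2 with most reads in a list, and the ends of marker lists; further genes of the lists (Furin, Reck, Cd63, Plg, Adam10, Adam17 and those in the last section) were named for their function after their values were seen. Alternatives were 4 other scalings, other count minimums, FPKM, other thresholds and assumed coefficients of variation. Cep295nl could not be matched. The values of 1 gene of the activation and control list are not reported here.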

Additional observations from a re-analysis of the deposited data

How the results depend on the processing

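No paired analysis was possible because there was only 1 library on either side, so that none could be left out. The direction of Timp1, Mmp2 and Mmp9 was the same under the 4 other scalings and with FPKM; for the other 7 genes it was not. Of 60 values of single genes, 32 stayed within the counting interval and 28 did not. Past 2-fold, 1 gene of the family was higher and 1 lower; with Ppia and Hprt the count higher was 0, and the count lower was 0 with the recomputed q-value under 0.005, with the nearest end of the counting interval, and with FPKM and a pseudocount of 1. By counting interval, 4 lay above 0 and 2 below; these were 2 and 5 with total counts, 1 and 7 with Ppia and Hprt, and with an assumed coefficient of variation of 0.1, 0.2 and 0.4 (edgeR's exact test, unadjusted p under 0.05) 1 and 1, 1 and 1, and 0 and 0. The TIMP share was 71.1% and 73.0% by FPKM, and 78.8% and 80.0% by reads, which weight long transcripts more. Over all genes, 822 were higher and 869 lower past 2-fold. These were 385 and 2313 with Ppia and Hprt, 3081 and 2491 with a minimum of 1 read, 452 and 235 with the recomputed q-value, which is not that of the study, 263 and 73 with the nearest end of the interval, 1761 and 1939 with a fold of 1.5, and 240 and 193 with FPKM and a pseudocount of 1; with a pseudocount of 0.1, 497 were higher. Counting intervals above and below 0 numbered 3703 and 3016, and 2014 and 5693 with total counts, 821 and 9280 with Ppia and Hprt, and 1703 and 1327, 649 and 474, and 146 and 102 with the 3 assumed coefficients. Depth limits Mmp9, Mmp15, Mmp19 and Mmp27.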

Other observations

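Of 16 listed genes of transcription factors known to act on MMP and TIMP promoters, 15 had a counting interval above 0 and 0 had one below (25.0% and 20.3% over all genes), and the interval of Sp1 held 0. Past 2-fold, 5 were higher and 0 lower (5.54% and 5.86% over all genes), with a median log2FC of 0.86 that stayed at 0.37 with Ppia and Hprt as the reference. The 5 genes were Fosl1 at 1.82 (20 and 66 reads), Ets1 at 1.78 (354 and 1135 reads), Rel at 1.54, Relb at 1.46 and Jund at 1.07. This list too was chosen with earlier results of these data known, and the study's own list of up-regulated genes holds Ets1 and Jund. The shares over all genes are therefore no independent comparison. With Ppia and Hprt, Fosl1, Ets1 and Rel were past 2-fold, Relb (0.97) and Jund (0.58) were not, and 13 intervals lay above 0 and 3 below. The genes of the list with most reads, Fos and Junb, had 30685 and 22840 reads in 5 mM K+ and log2FC of 0.42 and 0.67, which were -0.07 and 0.18 with Ppia and Hprt. Mmp3, which holds an AP-1 motif, had 0.23 (counting interval 0.10 to 0.36).

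Of 16 listed genes of matrix proteins that MMPs cut, 0 were past 2-fold in either direction (5.54% higher and 5.86% lower over all genes). By counting intervals 4 lay above 0 and 8 below (25.0% and 20.3% over all genes), and the median log2FC was -0.07. The median was -0.28 with total counts, with 2 intervals above 0 and 12 below, and -0.56 with Ppia and Hprt, with 0 above and 14 below. The most abundant, Eln (elastin), had 55056 and 42783 reads and a log2FC of -0.26 (counting interval -0.28 to -0.24), and Col3a1 had 36261 and 24034 reads and -0.49 (-0.52 to -0.47). Tnc (tenascin C) lay highest, at 0.56 (0.42 to 0.69).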
